A study of Homo sapiens with 8 samples.

Results

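The messenger RNA of COLO829 cells was compared between cells that carried a hairpin against MITF and cells that carried a scrambled hairpin, with both kept in the BRAF inhibitor PLX4032. The comparison used 4 of the 8 arrays of the series, all genes with a usable probe set entering it: the 2 arrays of the group shMITF_PLX4032 (A and B) minus the 2 of the group shSCR_PLX4032 (A and B), over 18404 genes. COLO829 is an established human melanoma line that harbours the BRAF V600E mutation, so every group shared that mutation and the same parent line. The hairpins were delivered in the pGIPZ vector, cells were selected in puromycin for 2 days in all groups, and 1 µM PLX4032 (vemurafenib) or its solvent DMSO was then given for 24 h. The other 4 arrays, shMITF_DMSO and shSCR_DMSO, had the same hairpins in solvent and enter here as the reference for the knockdown without drug. The labels name 1 hairpin against MITF and give no independent hairpin to compare it with. Whether A and B came from different cultures is not stated, and the p-values therefore rest on a spread between arrays that may be technical.

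MITF is the basic helix-loop-helix leucine zipper factor that specifies melanocytes. It binds E-box and M-box elements and drives genes of melanin synthesis, melanosome transport, survival and cell division, and it shares its DNA binding motif with the relatives TFEB, TFE3 and TFEC. Oncogenic BRAF acts through the kinase ERK, PLX4032 blocks that signal, and melanoma cells under such inhibitors can hold or raise MITF, whereas cells with little MITF are known for an invasive, dedifferentiated state. The question that the comparison addresses is which genes depend on MITF while BRAF is inhibited.

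Upstream sequences of genes that fell by at least 2-fold on knockdown, and of the pigment gene TYR, which did not pass the test, are printed here because they hold the E-box letters that MITF is known to bind. They are the 150 bases before an annotated start from the RefSeq promoter table (GRCh38.p14), 5′ to 3′ on the gene's strand, with each CATGTG or CACGTG, read on either strand, in capitals.
TRPM1, start 1, chr15:31161161-31161310, minus strand: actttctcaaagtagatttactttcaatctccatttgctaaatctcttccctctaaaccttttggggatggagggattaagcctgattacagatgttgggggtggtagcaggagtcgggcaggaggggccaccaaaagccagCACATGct
TRPM1, start 2, chr15:31101726-31101875, minus strand: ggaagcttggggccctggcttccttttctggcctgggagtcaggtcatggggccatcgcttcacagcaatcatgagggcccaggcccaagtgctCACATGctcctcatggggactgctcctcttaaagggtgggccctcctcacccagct
TSPAN10, chr17:81642155-81642304, plus strand: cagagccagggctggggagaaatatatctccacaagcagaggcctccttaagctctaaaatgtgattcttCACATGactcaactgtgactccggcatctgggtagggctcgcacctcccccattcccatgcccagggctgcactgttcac
TRIM63, chr1:26067631-26067780, minus strand: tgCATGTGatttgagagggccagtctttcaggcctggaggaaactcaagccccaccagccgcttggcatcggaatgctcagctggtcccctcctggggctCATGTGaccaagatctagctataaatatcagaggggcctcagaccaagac
BCL2A1, chr15:79971197-79971346, minus strand: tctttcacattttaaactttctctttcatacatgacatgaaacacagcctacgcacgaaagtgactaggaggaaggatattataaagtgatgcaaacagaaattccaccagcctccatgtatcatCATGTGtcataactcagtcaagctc
TYRP1, chr9:12693235-12693384, plus strand: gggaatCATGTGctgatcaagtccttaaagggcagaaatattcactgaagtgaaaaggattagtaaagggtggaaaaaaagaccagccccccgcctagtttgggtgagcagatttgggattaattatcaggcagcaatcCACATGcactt
TYR, chr11:89177725-89177874, plus strand: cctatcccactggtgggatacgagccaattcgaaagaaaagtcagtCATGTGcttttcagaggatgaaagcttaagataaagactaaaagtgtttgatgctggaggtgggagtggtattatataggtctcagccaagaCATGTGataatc
PPARGC1A, start 1, chr4:24472906-24473055, minus strand: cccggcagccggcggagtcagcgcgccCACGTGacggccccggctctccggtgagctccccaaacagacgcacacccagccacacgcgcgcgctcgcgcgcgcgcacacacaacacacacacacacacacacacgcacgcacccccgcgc
PPARGC1A, start 2, chr4:23881102-23881251, minus strand: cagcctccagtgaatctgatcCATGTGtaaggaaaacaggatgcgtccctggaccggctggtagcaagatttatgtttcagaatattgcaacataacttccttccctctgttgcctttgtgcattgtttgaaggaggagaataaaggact
TRIM63, TYRP1 and TYR each held 2 copies of CATGTG in these windows, and TRPM1 held 1 at each of its 2 starts. BCL2A1 and TSPAN10 held 1 copy, and PPARGC1A held CACGTG at its first listed start and CATGTG at its second. These windows were chosen for their motif, so a share over all genes is needed beside them. Windows of 300 bases (250 before a start and 50 after it) were in the table for 14230 of the genes tested, 20090 windows in all. CATGTG stood in 8.72% of them, in 8.11% of the 3318 windows of all genes called as falling and in 9.01% of the 3019 windows of all genes called as rising. In the smaller sets that changed at least 2-fold it stood in 12.2% of 403 windows of falling genes and in 11.2% of 581 windows of rising genes. CACGTG stood in 8.32% of all windows, in 11.8% for all called falls and 6.39% for all called rises, and in 9.43% and 4.13% for falls and rises of at least 2-fold. The M-box core TCATGTG, whose matches are all CATGTG matches too, stood in 2.23% of all windows, in 1.9% for all called falls and 1.89% for all called rises, and in 5.21% and 2.24% for falls and rises of at least 2-fold. No difference between these shares was tested. A match is a description of letters, not a binding site.

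Other motifs were counted in the same windows. The element made of GAAA, any 2 bases and GAAA again, which interferon regulatory factors are known to bind, stood in 3.11% of the windows of all genes tested, in 4.04% of those of all genes that rose and 2.2% of those of all genes that fell, and in 6.02% and 1.74% for rises and falls of at least 2-fold, both strands read. IFI44L, an interferon-induced gene, held 2 copies within 200 bases of its start, and the chemokine gene CXCL10 held 1 within 250 bases. Both rose on knockdown, and both sequences are given in the same way, with the element in capitals.
IFI44L, chr1:78620248-78620447, plus strand: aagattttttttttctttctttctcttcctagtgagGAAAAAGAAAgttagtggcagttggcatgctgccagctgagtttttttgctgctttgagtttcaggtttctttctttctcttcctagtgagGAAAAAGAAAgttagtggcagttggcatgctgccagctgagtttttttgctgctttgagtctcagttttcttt
CXCL10, chr4:76023498-76023747, minus strand: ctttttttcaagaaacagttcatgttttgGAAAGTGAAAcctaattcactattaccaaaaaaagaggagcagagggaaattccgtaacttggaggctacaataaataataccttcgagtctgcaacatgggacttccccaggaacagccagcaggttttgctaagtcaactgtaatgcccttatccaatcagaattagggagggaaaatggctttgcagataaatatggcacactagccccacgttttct
The AP-1 element TGANTCA stood in 6.1% of all windows, in 7.32% for all called rises and 5.24% for all called falls, and in 8.78% and 6.7% for rises and falls of at least 2-fold. The shares for CCAAT were 34.5%, 32.2%, 37.6%, 30.6% and 39.2%, and those for TTTGAA 12.3%, 12.4%, 12%, 12.7% and 12.4%, in the same order.

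The arrays of a group agreed closely. Across genes the Pearson correlation was 0.99801 between the 2 scrambled and 0.99734 between the 2 knockdown arrays under PLX4032, and lay between 0.9628 and 0.9844 for arrays of different groups. Values are log2 intensities between 2.1 and 13.53, no detection call was used, and a low value is not evidence of absence. The cell type was checked against markers: of 9 measured melanocyte markers, 8 stood above the median gene in scrambled cells under PLX4032 and 7 in knockdown cells under PLX4032. Of 11 leukocyte, 10 fibroblast and 9 endothelial markers 1 each did in both groups, and of 9 keratinocyte markers 0. The mean level of the leukocyte list was 4.93 and 4.98 on the scrambled arrays and 5.0 and 4.98 on the knockdown arrays under PLX4032. Of the markers of other cells, CD14 (0.70), COL3A1, KRT14 (0.38) and PECAM1 (0.27) rose on knockdown under PLX4032 and FAP (-0.56), CDH1 (-0.53), EMCN (-1.12) and KDR fell. PECAM1 lost its call under 11 of 13 alternatives, among them repeated quantile normalization, the mean of its probe sets (0.14), the variance trend, the replicate block and any 1 of the 4 PLX4032 or the 2 knockdown DMSO arrays left out, and CDH1 lost its call without the scrambled array A. The part of other cells in the results below was not tested. In bulk RNA, fewer cells of a kind and less RNA per cell cannot be told apart.

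MITF itself was lower in the knockdown. Its level under PLX4032 was 10.88 and 10.80 on the scrambled arrays (A and B) and 10.07 and 10.08 on the knockdown arrays, and the groups did not overlap, as for 62.6% of all genes tested. The log2 change was -0.76 ± 0.080 (SE of the limma fit, n = 2 arrays per group as for every change here; limma adjusted p = 3.02e-05), a 1.7-fold fall. TFE3, which binds the same elements and acts on lysosomal and metabolic genes, went the other way: 8.99 and 8.84 in scrambled and 9.59 and 9.58 in knockdown cells, a rise of 0.67 ± 0.089 (adjusted p = 0.000181). TFEB, the lysosomal regulator, stood at 6.39 and 6.06 (scrambled) and 6.46 and 6.36 (knockdown), and its change of 0.19 ± 0.12 did not pass the test (adjusted p = 0.274). TFEC was near the bottom of the scale on all 4 arrays, at 3.24 and 3.34 (scrambled) and 3.36 and 3.31 (knockdown).

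**Figure D1:**
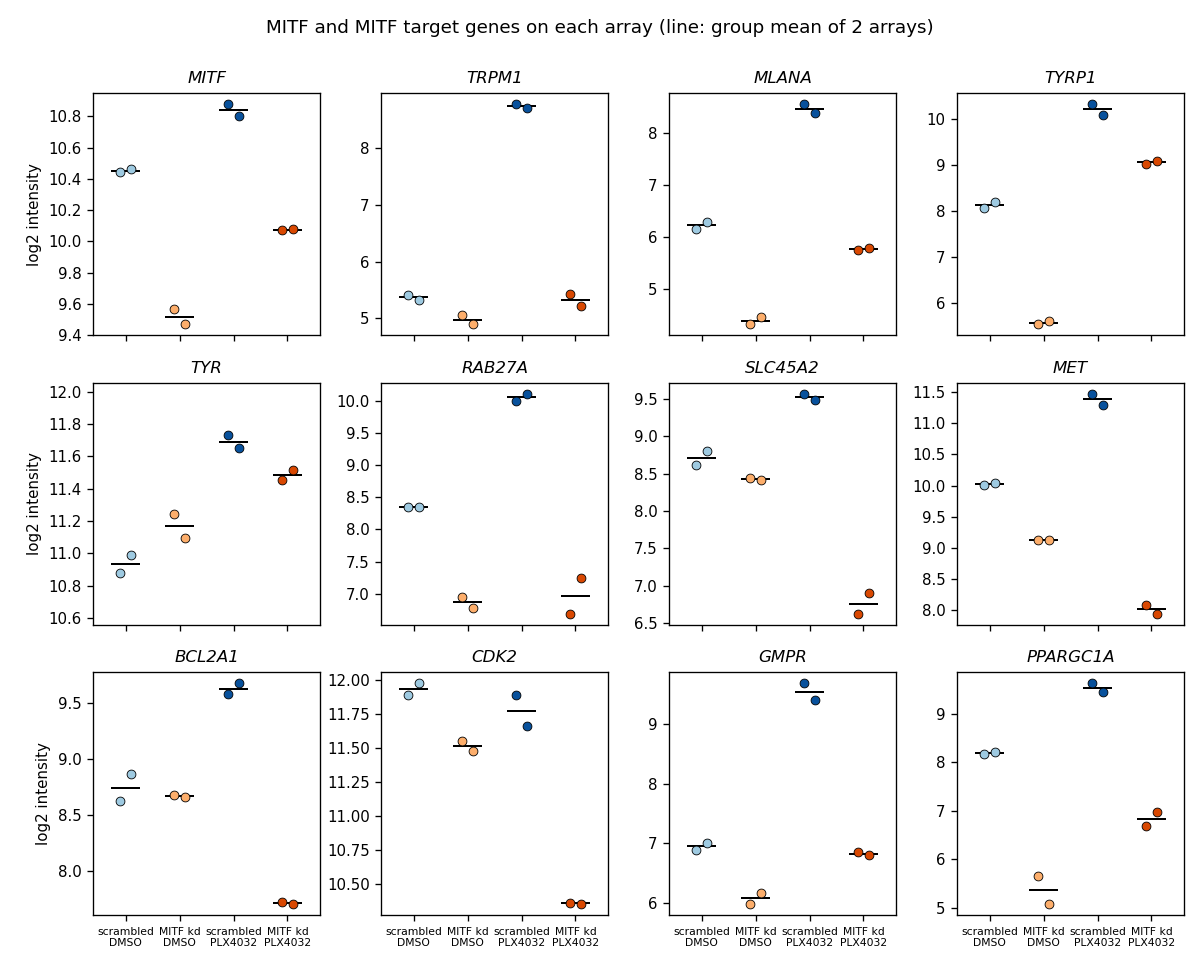
Log2 level of MITF and 11 genes it is reported to control, on each of the 8 arrays (points) with the group mean (line); each panel has its own scale and kd stands for knockdown. In all panels the 2 knockdown arrays under PLX4032 lie below the 2 scrambled arrays under PLX4032, by -3.43 for TRPM1 and by -0.21 for TYR, which did not pass the test.

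Of 18404 genes tested, 5243 changed at a limma adjusted p under 0.05 (28.5%): 2480 rose (13.5%) and 2763 fell (15%). Without the scrambled PLX4032 array A, 1809 genes fell and 1893 rose. A change of at least 1.5-fold as well was met by 967 genes that rose (5.25%) and 993 that fell (5.4%), one of at least 2-fold by 443 and 324, and one of at least 4-fold by 98 and 46. The median change over all genes was 0.0218. The counts for each gene list below are to be read against these shares. The groups did not overlap, in either direction, for 62.6% of all genes tested. Genes given below as not overlapping, or as lower or higher on both knockdown arrays, are to be read against that share.

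The steepest falls included those of genes of pigment cells and of melanosome traffic. AMBN (ameloblastin) went from 7.71 and 7.70 on scrambled arrays A and B to 4.11 and 4.18 on knockdown arrays A and B, the order used in all that follows, a change of -3.56 ± 0.077, FRMD4B from 9.52 and 9.44 to 5.86 and 6.13 (-3.49 ± 0.11) and TRPM1, a cation channel of melanocytes, from 8.78 and 8.71 to 5.43 and 5.21 (-3.43 ± 0.099, 10.8-fold). MET, the receptor of hepatocyte growth factor, went from 11.48 and 11.29 to 8.08 and 7.93 (-3.38 ± 0.092, 10.4-fold). The 15 largest falls were taken from called genes whose groups did not overlap, so their lack of overlap is no support for them. Then came RAB27A, MREG, DIPK1C (-3.04), the potassium channel subunit gene KCNAB2 (-2.96), SERPINF1 (-2.95), which encodes the anti-angiogenic pigment epithelium-derived factor, PRDM7 (-2.88), SLC45A2, SLC17A6 (-2.74), GMPR, PPARGC1A and PLXNC1. The 15 falls were 6.51 to 11.8-fold, and the highest adjusted p among them was 2.83e-06. On knockdown in DMSO 14 of the 15 were called as falling too, a call that 18.8% of all genes had. In scrambled cells each of these 15 genes was called higher under PLX4032 than in DMSO, a call that 17.3% of all genes had; that difference uses the same scrambled PLX4032 arrays, so it is given beside the falls and not as support for them.

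The steepest rises included those of secreted, adhesion and neural genes. FST, the extracellular antagonist of activin, went from 5.48 and 5.41 to 9.71 and 9.92 (4.37 ± 0.091, 20.6-fold), SLITRK6, a neuronal transmembrane protein, from 5.15 and 5.25 to 9.37 and 9.53 (4.25 ± 0.13) and ITGA10, a collagen-binding integrin, from 4.62 and 4.81 to 8.74 and 8.78 (4.05 ± 0.093). The cytokine gene IL24 went from 5.43 and 6.0 to 9.36 and 9.69 (3.81 ± 0.20). IL24 had a wider spread between its 2 scrambled arrays than the 3 before it. The 15 largest rises, too, were taken from called genes whose groups did not overlap. The large proteoglycan gene VCAN (3.74), the synaptic adhesion gene NRXN3 (3.49), the endocytic receptor gene LRP2 (3.46), MOXD1 (3.43), CCDC146 (3.42), IFIT2, PMEPA1 (3.38), the receptor phosphatase gene PTPRZ1 (3.38), IFI44L, the channel family gene ANO3 (3.22) and the ubiquitin-like gene UBD followed. The 15 rises were 9.26 to 20.6-fold, with a highest adjusted p of 9.34e-06. On knockdown in DMSO 14 of the 15 were called as rising too, against 14.4% of all genes. In scrambled cells 8 of the 15 were called lower under PLX4032 than in DMSO and 3 higher, again with shared arrays. Of all 18404 genes 3085 were called lower there and 3193 higher.

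**Figure D2:**
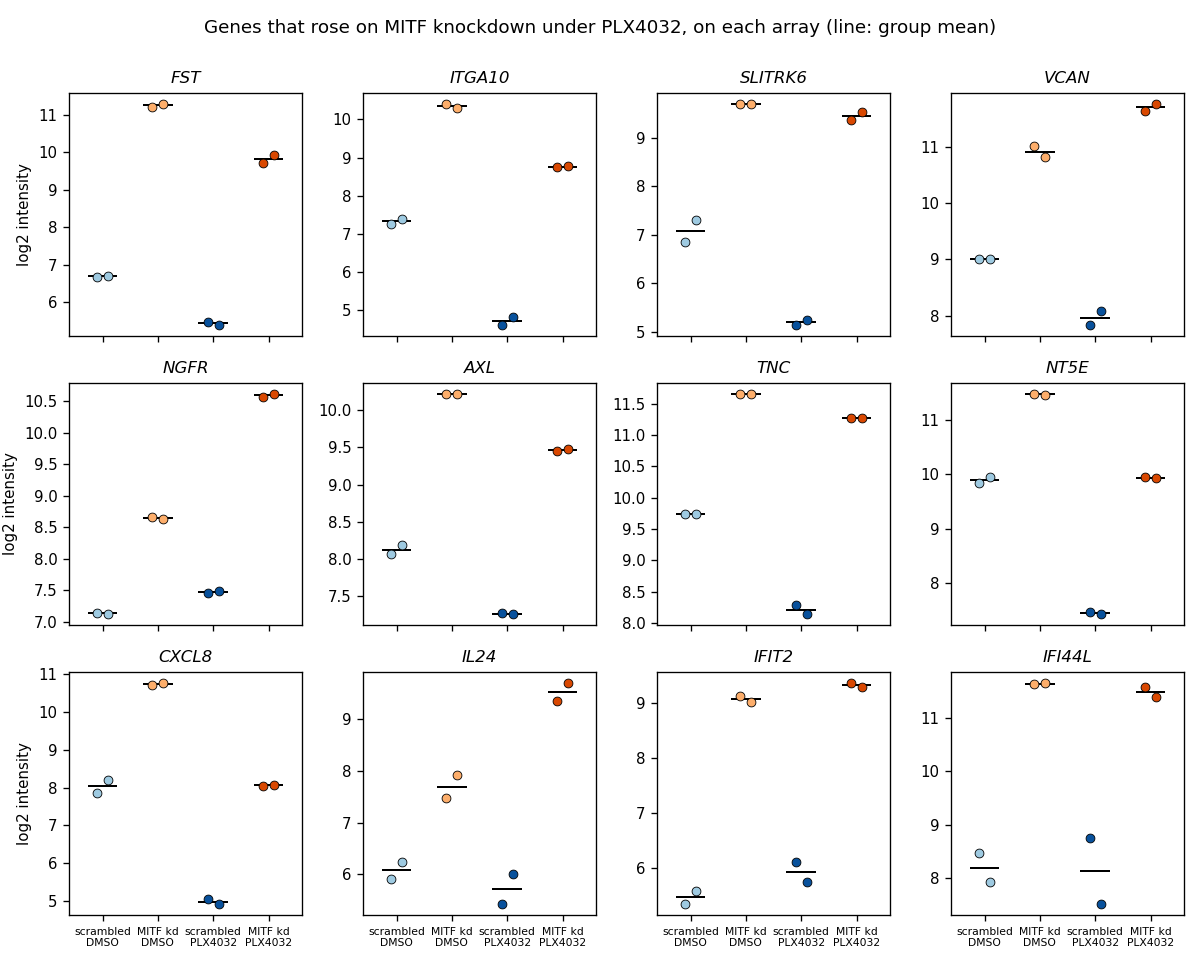
Log2 level of 12 genes that rose on MITF knockdown under PLX4032, on each of the 8 arrays (points) with the group mean (line); each panel has its own scale. The 2 knockdown arrays under PLX4032 stand above both scrambled PLX4032 arrays in every panel, by 4.37 for FST and 2.19 for AXL, and the 2 scrambled PLX4032 arrays of IFI44L lie apart (8.74 and 7.51).

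Genes of melanin synthesis fell. Of 13 measured genes for melanin enzymes and melanosome proteins, 9 fell and 0 rose, with a median change of -0.77. SLC45A2, a melanosomal transporter, stood at 9.57 and 9.48 in scrambled and 6.62 and 6.90 in knockdown cells (-2.76 ± 0.11, adjusted p = 1.57e-08). MLANA, the melanosome protein Melan-A, stood at 8.57 and 8.38 (scrambled) and 5.76 and 5.79 (knockdown) (-2.70 ± 0.095), and TSPAN10, a tetraspanin, at 9.10 and 8.67 (scrambled) and 6.43 and 6.08 (knockdown) (-2.63 ± 0.15). All 3 had no overlap between the groups, as for 62.6% of all genes tested. The anion transporter gene OCA2 (-1.40 ± 0.081), the enzyme gene TYRP1 (-1.15 ± 0.098), CITED1 (-0.91), the copper transporter gene ATP7A (-0.77), the fibril protein gene PMEL (-0.67 ± 0.10) and the exchanger gene SLC24A5 (-0.54) also fell. TYR, the rate-limiting enzyme of melanin synthesis, was high on all 4 arrays, at 11.73 and 11.65 in scrambled and 11.45 and 11.52 in knockdown cells. Its change of -0.21 ± 0.088 did not pass (adjusted p = 0.11), although it did when quantile normalization was repeated or the variance was fitted with a trend. GPNMB, GPR143 and SLC24A4 did not pass either. DCT, also on this list, was not measured.

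Genes for the motor complex that moves melanosomes fell. RAB27A, the small GTPase that tethers melanosomes to actin, went from 10.01 and 10.11 to 6.68 and 7.24 (-3.10 ± 0.15), its effector MLPH (melanophilin) from 8.66 and 8.40 to 6.12 and 6.09 (-2.43 ± 0.13) and the motor MYO5A from 11.53 and 11.47 to 10.00 and 10.01 (-1.49 ± 0.079). Each of these genes was lower on both knockdown arrays than on either scrambled array. MREG, melanoregulin, went from 10.13 and 10.06 to 6.97 and 7.08 (-3.07 ± 0.082). Of 25 measured genes of melanosome biogenesis and transport, 14 fell and 1 rose, with a median of -0.28. Beyond those 4, HPS4 (-1.07 ± 0.078), RAB17 (-1.04) and RAB32 (-1.0) fell, while RAB38 and the sorting complex subunits BLOC1S2, BLOC1S3, BLOC1S4 and BLOC1S6 did not pass. HPS1, the single rise (0.25 ± 0.079, adjusted p = 0.0356), lost its call when any 1 of the 4 PLX4032 arrays or either knockdown DMSO array was left out.

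Among 38 further genes that earlier work lists as targets of MITF, 29 fell and 2 rose, with a median of -0.72. GMPR, an enzyme of purine metabolism, went from 9.69 and 9.40 to 6.85 and 6.80 (-2.72 ± 0.11), TRIM63 from 8.55 and 8.65 to 6.20 and 5.91 (-2.54 ± 0.11) and PPARGC1A, the coactivator of mitochondrial biogenesis, from 9.63 and 9.46 to 6.70 and 6.97 (-2.71 ± 0.16, 6.52-fold). The survival gene BCL2A1 went from 9.58 and 9.68 to 7.72 and 7.71 (-1.91 ± 0.093, 3.76-fold). The kinase gene CDK2, which drives entry into S phase, went from 11.89 and 11.66 to 10.36 and 10.35 (-1.42 ± 0.094). GYG2 (-2.35), SIRPA (-1.68), LZTS1 (-1.50), the melanocyte factor IRF4 (-1.34) and TBC1D16 (-0.94) fell as well. BCL2 (0.49) and CEACAM1 (0.39) rose, with 1 rise when any 1 of the PLX4032 arrays was left out, and HIF1A, DICER1, TBX2, DIAPH1, APEX1, PHACTR1 and CTSK did not pass.

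Regulators of the melanocyte and neural crest lineage moved in both directions, 10 of 25 up and 7 down, with a median of -0.017. NGFR, the neurotrophin receptor that marks neural crest cells, went from 7.46 and 7.49 to 10.57 and 10.62 (3.12 ± 0.077, 8.72-fold, adjusted p = 1.37e-09). FOXD3, a neural crest factor, went from 8.12 and 7.96 to 10.24 and 10.13 (2.15 ± 0.11), and RXRG, a retinoid receptor, from 9.69 and 9.72 to 11.46 and 11.50 (1.77 ± 0.077). On both knockdown arrays these 3 were above either scrambled array. The inhibitory factor gene ID1 (1.52 ± 0.089), the pluripotency factor gene SOX2 (1.49 ± 0.11) and TBX3 (1.04) rose, and PAX3, which activates MITF, fell (-1.03 ± 0.089), as did LEF1 (-0.75), ETS1 (-0.70) and the melanocortin receptor gene MC1R (-0.49). SOX10, the other main activator of MITF, stood at 11.06 and 10.80 (scrambled) and 11.05 and 11.03 (knockdown) and did not pass (0.11 ± 0.097, adjusted p = 0.435). Of 8 factors of epithelial to mesenchymal transition, SNAI1 (0.95 ± 0.092) and ZEB2 (0.42 ± 0.080) rose, SNAI2 fell (-0.56 ± 0.091), and ZEB1, TWIST1, TWIST2, SNAI3 and PRRX1 did not pass. ZEB2 read 0.64 when its probe sets were averaged.

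Genes of the invasive state with low MITF rose, 16 of 27 measured members up and 1 down, with a median of 0.60. AXL, the receptor kinase that stands opposite MITF in melanoma, went from 7.28 and 7.26 to 9.45 and 9.47 (2.19 ± 0.080, 4.56-fold). TNC, the matrix protein tenascin-C, went from 8.29 and 8.14 to 11.28 and 11.27 (3.06 ± 0.082), and NT5E, the ectoenzyme CD73, from 7.47 and 7.43 to 9.94 and 9.92 (2.48 ± 0.080). The groups did not overlap for any of the 3, as for 62.6% of all genes tested. The matricellular gene CCN1 (1.99 ± 0.11), the AP-1 subunit genes JUN (1.97) and FOSL1 (0.97), N-cadherin, CDH2 (1.60), NUAK1 (1.41), LOXL2 (1.18) and PLAUR (1.06) rose too. The fall was that of CCN2, from 8.92 and 8.84 to 7.90 and 8.04 (-0.91 ± 0.11). EGFR, WNT5A, ROR2, TEAD1, TEAD4, VIM, CD44, PLAU, THBS1 and ANGPTL4 did not pass.

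Among 29 receptor tyrosine kinases, their ligands and an adaptor, 8 rose and 3 fell. Beside AXL, its family member MERTK went from 8.57 and 8.59 to 10.20 and 10.32 (1.68 ± 0.081), the EGFR ligand gene TGFA from 5.41 and 5.21 to 6.87 and 6.94 (1.59 ± 0.099) and the collagen receptor gene DDR1 from 8.49 and 8.35 to 9.87 and 9.87 (1.44 ± 0.085). The value for DDR1 is that of its brightest probe set, and the mean over its probe sets gave 0.79. MET fell, as above, with the adaptor gene GAB2 (-1.19) and the endothelial receptor gene KDR (-0.53). EGFR, PDGFRA, PDGFRB, IGF1R, KIT and FGFR1 to FGFR3 did not pass. Of 16 glial and myelin genes, 7 rose and 4 fell: the glial cadherin gene CDH19 went from 7.29 and 7.33 to 10.33 and 10.42 (3.07 ± 0.089) and the chaperone gene CRYAB from 9.89 and 9.90 to 11.33 and 11.41 (1.48 ± 0.078), whereas the proteoglycan gene BCAN went from 9.64 and 9.42 to 7.10 and 7.01 (-2.47 ± 0.11) and the myelin gene MBP from 9.08 and 9.07 to 6.82 and 6.90 (-2.21 ± 0.090).

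**Figure D3:**
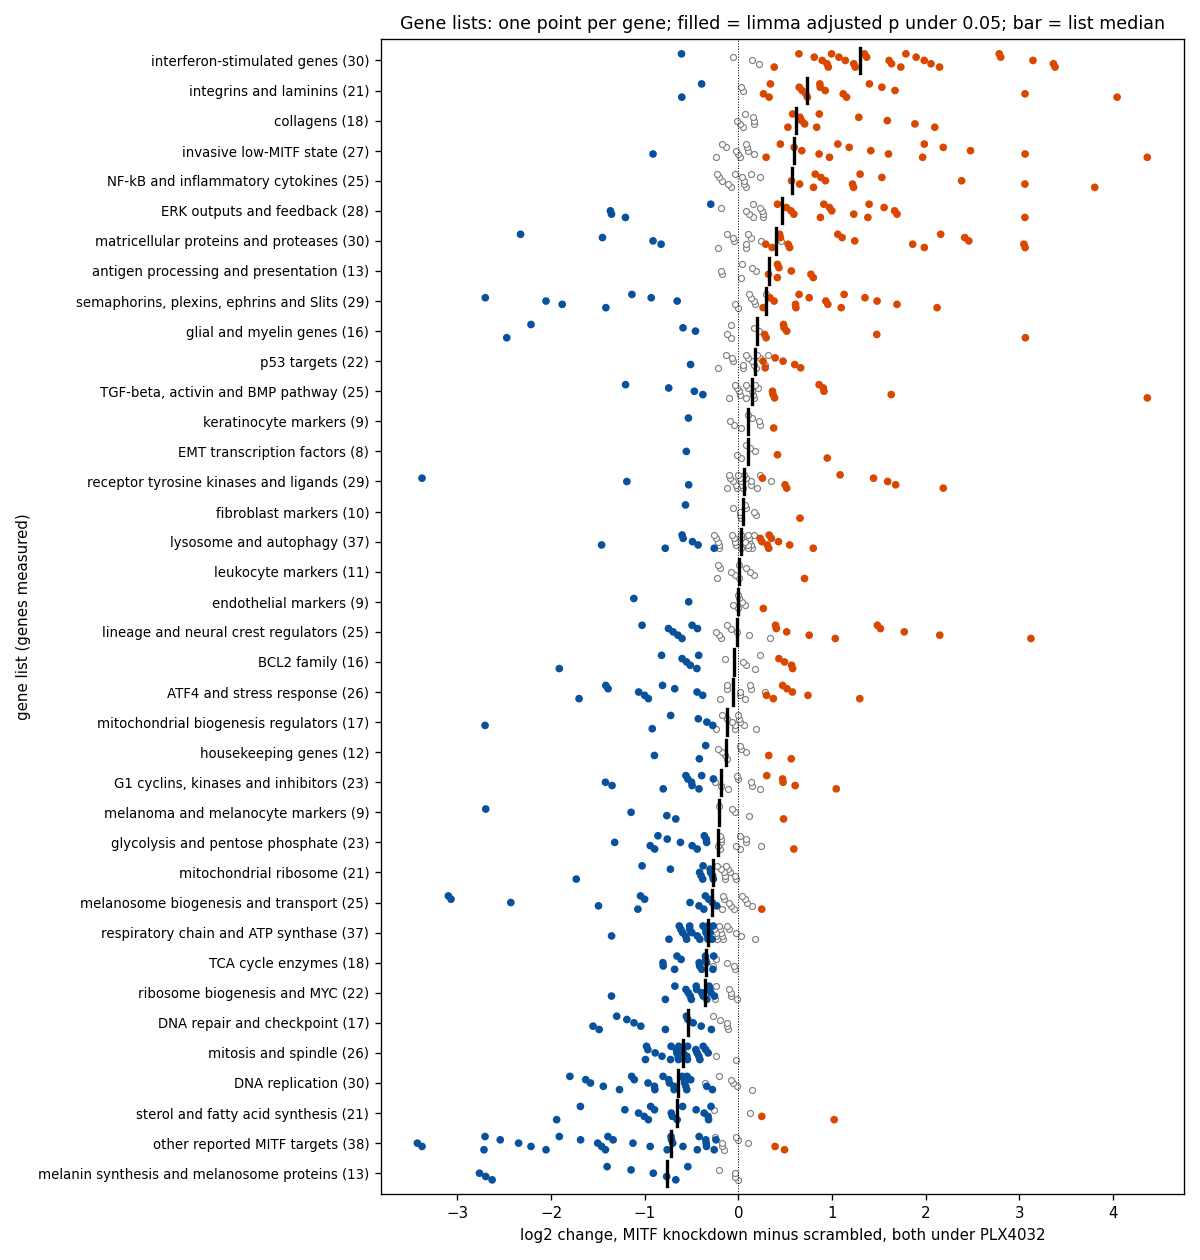
Log2 change on MITF knockdown under PLX4032 for each measured gene (point) of 38 gene lists, ordered by the list median (bar); filled points passed at a limma adjusted p under 0.05, orange for rises and blue for falls. Melanin genes have the lowest median (-0.77) and interferon-stimulated genes the highest (1.3).

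Genes of cell division were lower with the MITF hairpin. Of 26 mitosis and spindle genes, 24 fell and 0 rose, with a median of -0.59, and of 30 DNA replication genes 24 fell and 0 rose, with a median of -0.64. The origin licensing gene CDC6 went from 8.67 and 8.67 to 6.84 and 6.90 (-1.80 ± 0.092), the ribonucleotide reductase gene RRM2 from 8.78 and 8.80 to 6.93 and 7.39 (-1.63 ± 0.15) and the polymerase subunit gene POLE2 from 6.5 and 6.49 to 4.70 and 5.14 (-1.58 ± 0.14). All 3 were lower on both knockdown arrays. MCM10 (-1.44) and MCM4 (-1.27) of the replicative helicase machinery followed. The mitotic kinase gene AURKB went from 9.03 and 8.88 to 7.93 and 8.02 (-0.98 ± 0.089) and the checkpoint gene MAD2L1 from 7.90 and 8.02 to 6.81 and 7.17 (-0.97 ± 0.12). CDK1, at -0.99 ± 0.18, read -0.65 without the knockdown PLX4032 array A. TOP2A, KIF20A, PCNA, TYMS, CDT1, POLA1, RPA3 and RFC3 did not pass. Of 17 DNA repair and checkpoint genes, 12 fell and 0 rose (median -0.54), with BRCA1 (-1.55 ± 0.11), the checkpoint mediator gene CLSPN (-1.49 ± 0.12), the nuclease gene EXO1 (-1.3) and the helicase gene BLM (-1.19) among them. Among 23 G1 cyclins, kinases and inhibitors, 10 fell and 5 rose. Cyclin E2, CCNE2, fell (-1.35 ± 0.13), CDK6 fell (-0.80 ± 0.085), and the inhibitor genes CDKN2B (1.05 ± 0.082), CDKN2A (0.61 ± 0.086) and CDKN1A (0.48 ± 0.096) rose, while CDKN1B fell (-0.49). Cyclin D1, CCND1, at 8.74 and 8.69 (scrambled) and 9.02 and 8.88 (knockdown), did not pass (0.23 ± 0.087, adjusted p = 0.0678). It did with repeated quantile normalization, with the dimmest 40% of genes left out or with a variance trend.

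Outputs of ERK signalling, the pathway that PLX4032 blocks, were on balance higher with the MITF hairpin. Of 28 measured genes, 15 rose and 4 fell, with a median of 0.47. Knockdown in DMSO gave much the same for this list, with 17 rises, 1 fall and a median of 0.44. CXCL8, a chemokine, went from 5.05 and 4.94 to 8.05 and 8.06 (3.06 ± 0.11, 8.35-fold), the immediate early gene FOS from 6.65 and 6.86 to 8.32 and 8.54 (1.67 ± 0.11) and the cytokine gene LIF from 5.61 and 5.54 to 7.13 and 7.14 (1.56 ± 0.093). EPHA2 (1.69), IER3 (1.40), ETV1 (1.38), SPRY2 (1.23), EGR3 (1.0) and EGR1 (0.88) rose as well. The ERK phosphatase gene DUSP6 went from 8.0 and 8.03 to 8.62 and 8.61 (0.59 ± 0.084, adjusted p = 0.000292), against 10.64 and 10.76 in scrambled cells in DMSO, so all 4 PLX4032 arrays stood below both. SPRY4, another feedback inhibitor, stood at 6.38 and 6.23 (scrambled) and 6.38 and 6.54 (knockdown) and did not pass (0.15 ± 0.10, adjusted p = 0.303). The ETS factor genes ETV5 (-1.37) and ETV4 (-1.21) and MYC (-1.35 ± 0.098) fell.

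Interferon-stimulated genes had the highest median of the gene lists, 1.3, with 26 of 30 up and 1 down. These genes answer interferons through the STAT and IRF factors and encode antiviral proteins. IFIT2 went from 6.12 and 5.75 to 9.35 and 9.29 (3.38 ± 0.12, 10.4-fold), CXCL10, a chemokine that draws T cells, from 4.04 and 3.97 to 7.17 and 7.13 (3.15 ± 0.079) and the sensor gene IFIH1 from 6.45 and 5.91 to 8.48 and 8.18 (2.15 ± 0.15). These 3 did not overlap between groups, as for 62.6% of all genes tested. The 2 scrambled arrays differed for this list: IFI44L stood at 8.74 and 7.51 there and at 11.59 and 11.40 in knockdown cells (3.37 ± 0.30), IFIT1 at 9.23 and 7.81 (scrambled) and 11.42 and 11.19 (knockdown) (2.79 ± 0.32). Scrambled PLX4032 array A was above array B for 28 of the 30 genes, by a median of 0.40, against 0.0291 over all genes tested. The median change of the list was 1.58 without that array and 1.13 without array B. The mean level of the list was 7.48 and 7.02 on these arrays and 8.77 and 8.6 on the knockdown arrays. OAS2 (2.06), RIGI (1.99), RSAD2 (1.90), OAS1 (1.74) and ISG15 (1.25) rose. HERC5 fell (-0.61), a call lost without scrambled PLX4032 array A, and MX1, MX2 and CXCL11 did not pass. Of 13 antigen processing genes, 7 rose and 0 fell (median 0.32), led by the trimming peptidase gene ERAP1 (0.80 ± 0.079), the peptide transporter gene TAP1 (0.78 ± 0.12) and B2M (0.57 ± 0.086).

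Of 25 genes of NF-kB and inflammatory cytokines, 13 rose and 0 fell, with a median of 0.57. CCL2, which draws monocytes, went from 4.96 and 4.88 to 7.27 and 7.33 (2.38 ± 0.11), the prostaglandin synthase gene PTGS2 from 4.48 and 4.28 to 5.61 and 6.22 (1.53 ± 0.18) and TNFAIP3, which inhibits NF-kB, from 6.23 and 6.21 to 7.42 and 7.61 (1.3 ± 0.087). The groups of these genes did not overlap, as for 62.6% of all genes tested. The subunit genes RELB (1.23), NFKB2 (1.22), NFKB1 (0.93) and REL (0.65) and the inhibitor gene NFKBIA (0.80) rose together, and IL6, TNF, IL1B, CCL20, CXCL2 and CXCL3 did not pass.

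The BCL2 family, which sets the threshold of mitochondrial cell death, was split, with 7 of 16 members down and 4 up. Beside BCL2A1, the survival gene BCL2L1 went from 10.21 and 10.00 to 9.16 and 9.40 (-0.82 ± 0.10) and the pore former gene BAK1 from 9.52 and 9.26 to 8.83 and 8.76 (-0.60 ± 0.097). The survival gene MCL1 went from 9.91 and 9.90 to 10.44 and 10.51 (0.57 ± 0.077), and the death activators BMF (0.58 ± 0.088) and BCL2L11 (0.43) rose. PMAIP1 (-0.51) and BID (-0.42) fell, and BAX, BBC3, BAD, BIK and BCL2L10 did not pass. Members that promote and that prevent death were thus found on both sides. Of 22 p53 targets, 6 rose and 1 fell (median 0.18), the death receptor gene TNFRSF10B (0.67 ± 0.081) and TP53I3 (0.60 ± 0.086) among them. The fall was that of SESN1 (-0.51), which was not called without the scrambled PLX4032 array A, and BAX, FAS and GADD45A did not pass.

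Mitochondrial and biosynthetic genes fell by smaller steps. Of 17 regulators of mitochondrial biogenesis, 6 fell and 0 rose: PPARGC1A, as above, the nuclear receptor gene ESRRA (-0.72 ± 0.087), which works with it, and TFB1M (-0.92 ± 0.17) were among them, and TFB1M read -0.59 without the knockdown PLX4032 array A. PPARGC1B, NRF1 and POLG did not pass. Of 37 respiratory chain and ATP synthase genes, 22 fell and 0 rose (median -0.32), COX7B going from 9.97 and 9.84 to 8.50 and 8.60 (-1.35 ± 0.11). Of 18 TCA cycle enzymes, 13 fell and 0 rose (median -0.35), led by OGDH (-0.81 ± 0.090) and MDH1 (-0.80 ± 0.082), and of 21 mitochondrial ribosome genes 11 fell and 0 rose (median -0.27), led by MRPL44, from 10.75 and 10.65 to 8.84 and 9.11 (-1.73 ± 0.10). Without the scrambled PLX4032 array A the falls of these 4 lists numbered 3, 10, 6 and 4, and without the knockdown PLX4032 array A the regulators, the TCA cycle and the mitochondrial ribosome had 3, 7 and 6. The median of the mitochondrial ribosome was -0.17 without the scrambled PLX4032 array A.

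Of 21 sterol and fatty acid synthesis genes, 17 fell and 2 rose, with a median of -0.65. ELOVL6, which lengthens fatty acids, went from 8.89 and 8.72 to 6.72 and 7.01 (-1.94 ± 0.12), HMGCS1 of the mevalonate pathway from 9.40 and 9.28 to 7.55 and 7.74 (-1.69 ± 0.097) and SQLE, squalene epoxidase, from 10.23 and 10.18 to 8.93 and 9.05 (-1.21 ± 0.081). These were lower on both knockdown arrays than on either scrambled one. DHCR7 (-1.07), LSS (-1.01), FDPS (-0.94) and FASN (-0.72) fell, and malic enzyme, ME1, went the other way, from 8.54 and 8.71 to 9.56 and 9.73 (1.02 ± 0.096). FADS1 was the other rise (0.25), and 1 rise was counted when any 1 of the 4 PLX4032 arrays or either knockdown DMSO array was left out. Of 23 genes of glycolysis and the pentose phosphate pathway, 11 fell and 1 rose (median -0.22), with PFKP (-1.32 ± 0.081), a phosphofructokinase, ENO2 (-0.94) and GPI (-0.76) down and the glucose transporter gene SLC2A3 up (0.59). Of 22 genes of ribosome biogenesis with MYC, 16 fell and 0 rose (median -0.36), and 10 fell without the scrambled PLX4032 array A. DKC1 (-0.78 ± 0.11), WDR12 (-0.68) and BOP1 (-0.56) followed MYC. In the ATF4 and stress response list, 10 of 26 fell and 7 rose: the amino acid transporter genes SLC7A5 (-1.70 ± 0.086) and SLC7A1 (-1.06 ± 0.078) and the serine synthesis genes PHGDH (-1.0) and PSAT1 (-0.96) fell, and ATF3 (1.3 ± 0.14) and ATF4 itself (0.37) rose, with 4 rises without the scrambled PLX4032 array B. In the list of lysosome and autophagy genes, 37 were measured, 9 of them up and 7 down (median 0.030). RRAGD, a GTPase of lysosomal nutrient sensing and a target of the MITF and TFE factors, went from 10.23 and 10.23 to 8.78 and 8.76 (-1.46 ± 0.086), the channel gene MCOLN1 (-0.59) and the proton pump genes ATP6V1H (-0.60) and ATP6V1A (-0.49) fell, and the acid glucosidase gene GAA rose (0.80 ± 0.085). The rises numbered 4 without the scrambled PLX4032 array B and 5 without either knockdown PLX4032 array.

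Genes of the cell surface and the matrix rose. Of 21 integrins and laminins, 17 rose and 2 fell, with a median of 0.74. ITGA2, a collagen receptor subunit, went from 7.78 and 7.88 to 10.88 and 10.91 (3.06 ± 0.081, 8.35-fold), LAMA4 from 9.81 and 9.81 to 11.50 and 11.46 (1.67 ± 0.091) and ITGB8, which activates latent TGF-beta, from 9.85 and 9.88 to 11.35 and 11.44 (1.53 ± 0.082). The widely used subunit genes ITGB1 (0.33), ITGAV (0.65), ITGB3 (0.93), ITGA4 (1.16) and ITGA3 (0.87) rose, and LAMA1 (-0.60) and ITGA9 (-0.39) fell, 1 of them when the scrambled PLX4032 array A or the knockdown PLX4032 array B was left out. Of 18 collagens, 11 rose and 0 fell (median 0.62): the basement membrane genes COL4A1 (2.10 ± 0.081) and COL4A2 (1.29 ± 0.080), COL5A2 (1.89 ± 0.081) and COL8A1 (1.59 ± 0.082) led, and the fibroblast collagens COL1A1 (0.16) and COL1A2 (0.073) did not pass. COL3A1, which is also a fibroblast marker, went from 5.22 and 5.35 to 6.07 and 5.81 (0.66 ± 0.10).

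Of 30 matricellular proteins and proteases, 16 rose and 4 fell (median 0.40). SERPINA3, a protease inhibitor, went from 9.25 and 9.01 to 12.19 and 12.17 (3.05 ± 0.096), the membrane protease gene MMP15 from 8.43 and 8.50 to 10.93 and 10.92 (2.46 ± 0.078) and ADAMTS1 from 5.29 and 5.57 to 7.78 and 7.91 (2.42 ± 0.10). Neutral endopeptidase, MME, went down, from 7.05 and 7.14 to 4.89 and 4.65 (-2.33 ± 0.18). MMP1, MMP2, MMP9 and MMP14 did not pass. In the TGF-beta, activin and BMP pathway, 8 of 25 rose and 4 fell: beside FST, the ligand gene TGFB3 rose (1.63 ± 0.098) while TGFB2 fell (-1.20 ± 0.089), and the activin subunit gene INHBA (0.86), the antagonist gene FSTL3 (0.91 ± 0.091) and the effector gene SMAD3 (0.91 ± 0.078) rose. Of 29 guidance genes (semaphorins, plexins, ephrins and Slits), 15 rose and 7 fell (median 0.30). The plexin gene PLXNC1 went from 10.63 and 10.61 to 7.94 and 7.89 (-2.70 ± 0.084), SEMA6A fell (-2.05 ± 0.12) and EPHA5 fell (-1.88 ± 0.12), whereas the secreted semaphorin gene SEMA3B (2.12 ± 0.086), SLIT2 (1.48) and the co-receptor gene NRP1 (1.13) rose.

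The same hairpins without the drug gave the reference for these changes, and that comparison shares no array with the one under PLX4032. Knockdown in DMSO changed 6114 genes (33.2%), of which 2655 rose (14.4%) and 3459 fell (18.8%), against 3723 in all without the knockdown DMSO array B. In both conditions 1243 genes rose, which is 50.1% of the rises under PLX4032 and 46.8% of those in DMSO, and 1787 fell, which is 64.7% and 51.7%. Across the 18404 genes the changes in the 2 conditions had a Pearson correlation of 0.644 and a Spearman correlation of 0.582, a description over genes that share arrays. The difference between the knockdown changes, tested as an interaction, was called for 2176 genes (11.8%), 1283 positive (6.97%) and 893 negative (4.85%), and the count was 1278 without the knockdown DMSO array B, 1427 without the knockdown DMSO array A and 1431 without the scrambled PLX4032 array A. It was called for 1436 of the 5243 genes that changed under PLX4032. Those genes were picked on arrays that the interaction also uses, so a raised share among them is no support. The interaction was also called for all of the 143 genes that rose under PLX4032 but fell in DMSO and the 72 that did the reverse. That outcome was all but fixed, because these genes were picked for called changes in opposite directions. The fall of MITF itself did not differ detectably (0.17 ± 0.11, adjusted p = 0.415).

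**Figure D4:**
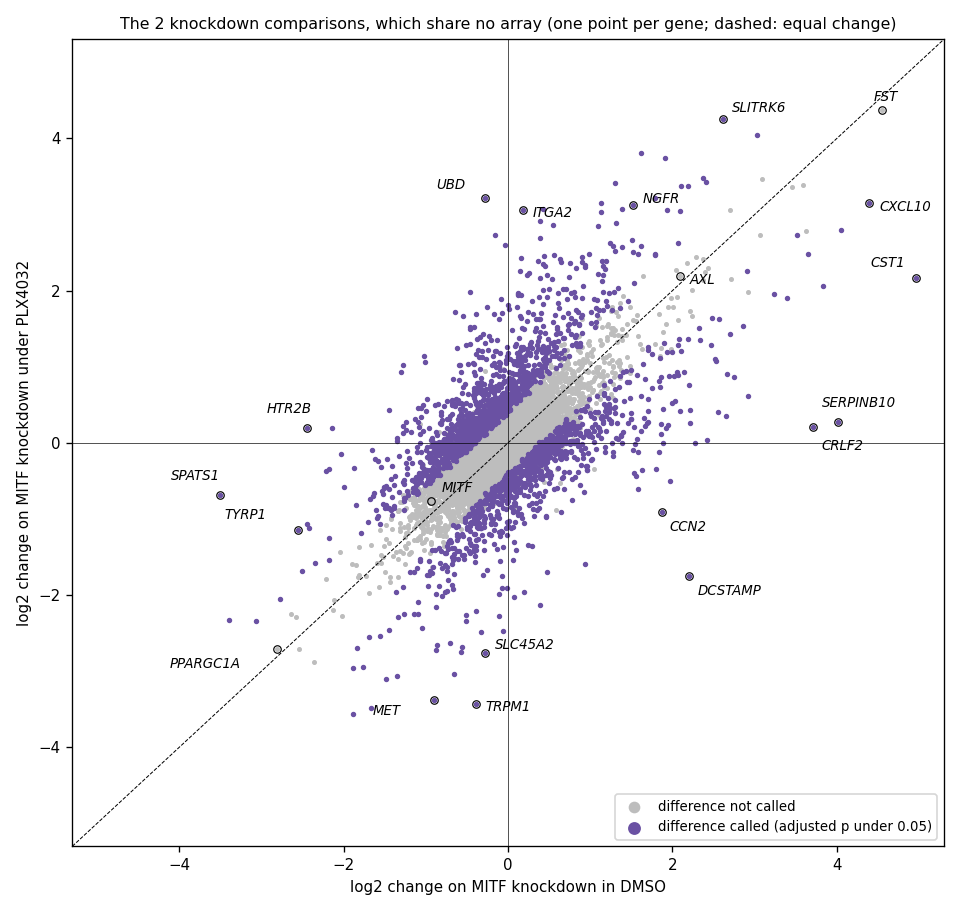
Log2 change on MITF knockdown in DMSO (horizontal) and under PLX4032 (vertical) for 18404 genes, 1 point each; purple marks the 2176 genes whose 2 changes differed by the limma interaction test, and the dashed line marks equal change. FST and PPARGC1A lie by the line, TRPM1, MET and SLC45A2 fell further under PLX4032, and UBD and ITGA2 rose further there.

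The falls of several MITF targets were larger under the inhibitor. TRPM1 fell by 3.43 under PLX4032 and by 0.40 in DMSO, a difference of -3.03 ± 0.14 (adjusted p = 1.11e-06), and it stood at 5.42 and 5.32 in scrambled and 5.05 and 4.89 in knockdown cells in DMSO, near its level in knockdown cells under the drug. SLC45A2 stood at 8.61 and 8.80 (scrambled) and 8.44 and 8.41 (knockdown) in DMSO (-0.28), a difference of -2.49 ± 0.15. MET, at 10.01 and 10.04 (scrambled) and 9.12 and 9.13 (knockdown) in DMSO, differed by -2.48 ± 0.13, BCL2A1, at 8.63 and 8.86 (scrambled) and 8.68 and 8.66 (knockdown), by -1.84 ± 0.13, and CDK2, at 11.89 and 11.98 (scrambled) and 11.55 and 11.48 (knockdown), by -1.0 ± 0.13. BCL2A1 did not pass in DMSO (-0.076, adjusted p = 0.569). TYRP1 went the other way, with a fall of 2.55 in DMSO against 1.15 under PLX4032 (difference 1.41 ± 0.14), and for PPARGC1A (-2.81 in DMSO) the difference of 0.11 ± 0.23 did not pass (adjusted p = 0.834). Of the 13 melanin genes, the difference was negative and called for 8 and positive for 1 (4 and 1 without the scrambled PLX4032 array A, the knockdown DMSO array A or the knockdown PLX4032 array A, and 5 and 1 without the knockdown DMSO array B or the knockdown PLX4032 array B), and of the 38 other targets it was negative for 11 and positive for 8, with 5 positive without either scrambled PLX4032 array and 4 without the knockdown DMSO array B.

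Other lists differed as well. The median change of interferon-stimulated genes was 2.07 in DMSO and 1.3 under PLX4032, and the difference was negative and called for 12 of 30 and positive for 0. That count was 20 without the scrambled PLX4032 array B, 8 without the scrambled DMSO array B, the knockdown DMSO array B or the knockdown PLX4032 array B, and the difference for CXCL10 was -1.25 ± 0.11. In scrambled cells all 26 mitosis genes were called lower under PLX4032 than in DMSO (median -1.17), against 3085 of all 18404 genes, with shared arrays. The median knockdown change of the mitosis genes was -0.90 in DMSO and -0.59 under PLX4032. The difference was positive and called for 8 of 26 and negative for 0, with 3 to 13 positive when 1 array was left out: 3 without scrambled DMSO array B, knockdown DMSO array B or knockdown PLX4032 array B, 4 without scrambled PLX4032 array A or B or knockdown DMSO array A, and 13 without knockdown PLX4032 array A. Of 21 sterol and fatty acid synthesis genes, 8 differed negatively and 1 positively, SQLE not passing in DMSO (-0.20, adjusted p = 0.0775; difference -1.01 ± 0.11). Of 21 integrins and laminins, 9 differed positively and 1 negatively, with 6 positive without the knockdown DMSO array B.

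The largest positive differences were led by UBD and ITGA2. UBD, a ubiquitin-like modifier, stood at 5.63 and 4.91 in scrambled and 5.03 and 4.95 in knockdown cells in DMSO, and at 4.5 and 4.91 (scrambled) and 7.82 and 8.02 (knockdown) under PLX4032, so that the 2 arrays with both perturbations stood above the other 6 (difference 3.49 ± 0.28, adjusted p = 2.27e-05). A second probe set for UBD gave a change of 2.16 under PLX4032, against 3.21 for the one used. ITGA2 stood at 8.21 and 8.29 (scrambled) and 8.43 and 8.42 (knockdown) in DMSO (difference 2.89 ± 0.11). The nuclear envelope gene SYNE3 (2.88), ABI3BP (2.65), PODXL (2.52), a sialomucin of the cell surface, the homeobox gene DLX5 (2.44) and the row named LINC00341 (2.63) also rose on knockdown under PLX4032. SPATS1 (2.82) and the serotonin receptor gene HTR2B (2.64) had positive differences of another kind. SPATS1 fell in both conditions and further in DMSO (-3.51 against -0.69), and HTR2B fell in DMSO alone: it stood at 8.02 and 8.02 (scrambled) and 5.69 and 5.47 (knockdown) there, against 8.96 and 9.21 (scrambled) and 9.19 and 9.38 (knockdown) under PLX4032, where it did not pass. SQOR (2.37) rose under PLX4032 and fell in DMSO. Beside TRPM1, SLC45A2 and MET, the largest negative differences belonged to genes that knockdown raised in DMSO. DCSTAMP, which acts in cell fusion, stood at 5.89 and 6.03 (scrambled) and 8.16 and 8.17 (knockdown) in DMSO and at 5.69 and 5.70 (scrambled) and 4.07 and 3.81 (knockdown) under PLX4032, a rise and a fall (difference -3.96 ± 0.14). CCN2 stood at 8.34 and 8.64 (scrambled) and 10.37 and 10.35 (knockdown) in DMSO and, as above, fell under PLX4032 (difference -2.78 ± 0.15). SERPINB10 stood at 7.52 and 7.40 in knockdown cells in DMSO and at or below 3.97 on the other 6 arrays (difference -3.74 ± 0.14). CRLF2, a cytokine receptor, had the same shape (-3.50), CST1 rose in both and more in DMSO (-2.80), and PLN (-2.53) and SOCS6 (-2.52), a suppressor of cytokine signalling, rose in DMSO and fell under PLX4032.

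**Figure D5:**
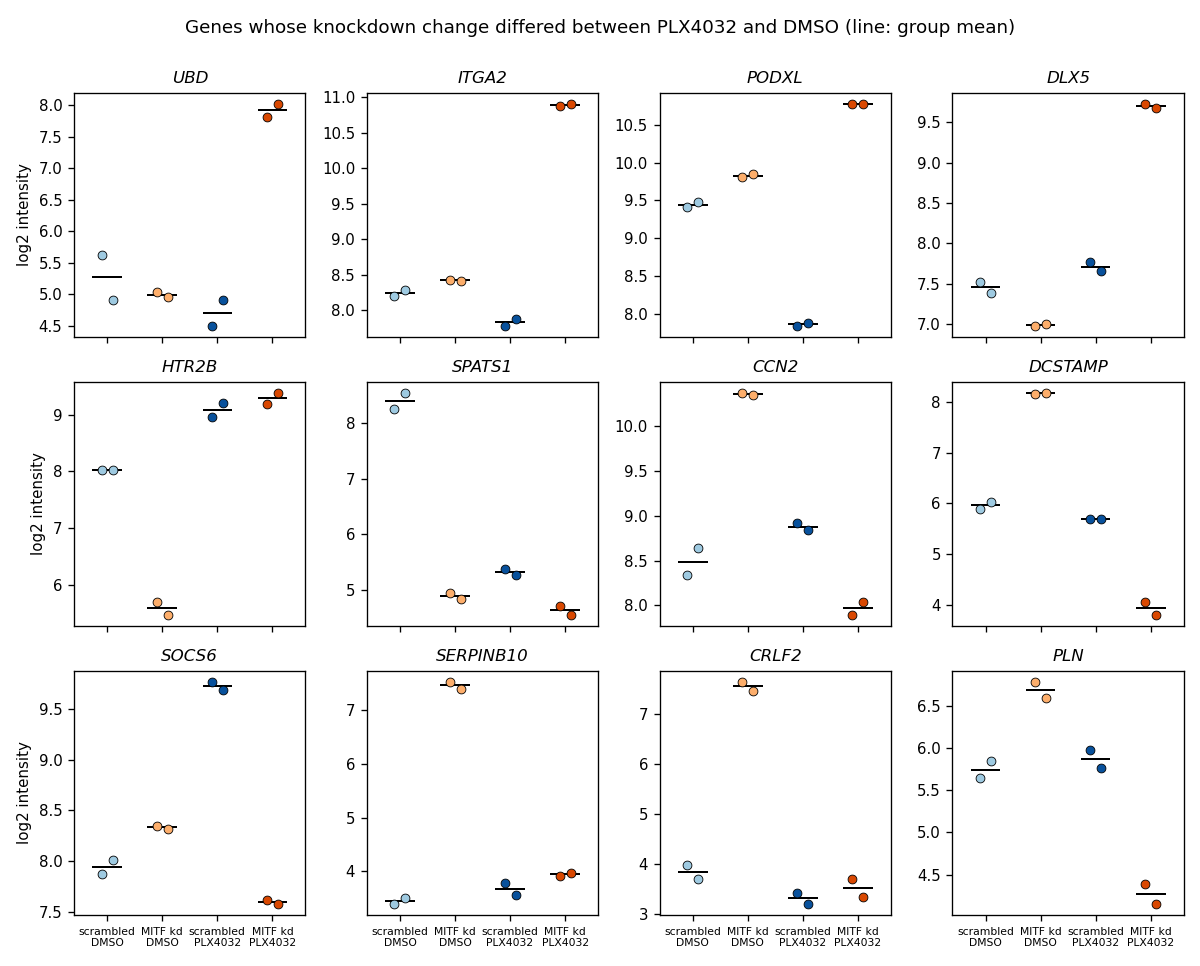
Log2 level on each of the 8 arrays (points) with the group mean (line) for 12 genes whose knockdown change differed between PLX4032 and DMSO; each panel has its own scale. UBD is high on the 2 knockdown PLX4032 arrays alone (7.82 and 8.02), and DCSTAMP, SERPINB10 and CRLF2 are high on the 2 knockdown DMSO arrays alone.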

How the data were processed

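RNA of COLO829 cells was hybridised to 8 Affymetrix arrays. The values analysed are the authors' deposited log2 intensities, summarised with RMA per the submitters' processing notes, with no version given. The genome build behind the probe sets is not given in the sources used here. Probe sets were named through the platform annotation of 2016. Of 32321 probe sets, 19158 had 1 symbol, 1388 several and 11775 none, and the probe set with the highest mean over the 8 arrays stood for each of 18404 genes, since 637 genes had more than 1. A linear model with a mean per group was fitted to all 8 arrays in limma 3.58.1 (R 4.3.3) with empirical Bayes moderation (4 residual and 6.73 prior degrees of freedom), and p-values were adjusted by Benjamini-Hochberg over all genes at a threshold of 0.05. The script was tested on simulated data. Named genes were the 15 largest changes in each direction among those called whose groups did not overlap, and the 10 largest differences in each direction. The 5 called members of each list that changed most and genes fixed by role were named too. Other members were named with their values seen. The comparison, its 39 gene lists (820 of 888 entries measured) and this rule were chosen with earlier results of these data known. Alternatives were repeated quantile normalization, a filter on dim genes, the mean of a gene's probe sets, a variance trend, the replicate block, the 4 PLX4032 arrays alone, a minimum fold and each array left out. Figures were drawn with matplotlib 3.10.9 in Python 3.11.15.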

Additional observations from a re-analysis of the deposited data

Results flagged for a closer look

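Groups held 2 arrays each, too few to look for an array apart from its group. The results here were listed because the knockdown change under PLX4032 differed from that in DMSO by limma's interaction test at an adjusted p under 0.05. This was so for 2176 genes, and 27 of them are listed by a rule set after results of these data were known: genes always named for their role, and the 10 largest positive and 10 largest negative differences. Each value is the change under PLX4032 minus the change in DMSO.

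Among the genes named for their role, the difference was positive for TYRP1 (1.41), which fell in both conditions and less under PLX4032. It was also positive for the neural crest receptor gene NGFR (1.61), which rose in both conditions and more under PLX4032. It was negative for TRPM1 (-3.03), BCL2A1 (-1.84), CDK2 (-1.0), MLANA (-0.86), the feedback inhibitor gene SPRY4 (-0.80) and TYR (-0.44, adjusted p = 0.044), whose call was lost under 8 of the alternatives tried. The largest positive differences were those of UBD (3.49), ITGA2 (2.89), SYNE3 (2.88), SPATS1 (2.82), ABI3BP (2.65), HTR2B (2.64), LINC00341 (2.63), PODXL (2.52), DLX5 (2.44) and SQOR (2.37). The largest negative ones, beside TRPM1, were those of DCSTAMP (-3.96), SERPINB10 (-3.74), CRLF2 (-3.50), CST1 (-2.80), CCN2 (-2.78), PLN (-2.53), SOCS6 (-2.52), SLC45A2 (-2.49) and MET (-2.48).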

How the results depend on the processing

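For the knockdown under PLX4032, 5243 genes were called. Leaving out 1 array gave 3702 to 5526 calls, and adding a minimum of 1.5-fold gave 1960. For the knockdown in DMSO the range with 1 array left out was 3723 to 6377, and for the difference between the knockdown changes 1278 to 2132. With the replicate letter as a block the 3 counts were 5279, 6146 and 2176. The letters do not pair the arrays by the labels.

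Signs turned for uncalled values near 0. With 1 array left out, the change under PLX4032 was -0.0097 to 0.0942 for TFEC and -0.0199 to 0.2457 for SOX10. The difference was -0.173 to 0.1606 for TFEB, -0.1783 to 0.3941 for PPARGC1A and -0.1488 to 0.1168 for SOX10, and 0.0528 for TFEB with quantile normalization repeated. The cause was not tested. The genes TAPBP, SESN1, TFAM, GABPB1, NDUFB3, MRPS2, CDH1, PECAM1, HPRT1 and GUSB each lost their call with at least 1 array left out. With 2 arrays per group and no detection call, small changes and dim genes are the least certain.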
